A study of Mus musculus with 12 samples.

Results

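Epiblast stem cells (EpiSCs) are pluripotent mouse cells that resemble the epiblast after implantation. In these cells the effect of adding XAV939 to CHIR99021 was measured as the 3 arrays of cells given both compounds minus the 3 arrays of cells given CHIR99021 alone, which is 6 of the 12 arrays of the series. Cells of strain background 129 were kept for 12 h without serum, although a medium with 10% serum is also recorded for every sample. They were then left untreated, given CHIR99021 at 3 µM for 2 h, given XAV939 at 2 µM, or given both at those doses, with 3 arrays per group. The time with XAV939 is 2 h in the sample labels and 4 h in the design text, and the sources used here do not settle which. Whether the 3 samples of a group are separate cultures is not stated, and the spread between arrays behind each p-value may therefore be technical.

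CHIR99021 inhibits GSK3, the kinase that marks beta-catenin for destruction, so beta-catenin accumulates and acts with TCF/LEF factors on target genes. XAV939 inhibits the tankyrases, which otherwise mark the scaffold protein Axin for degradation. Stabilised Axin supports the destruction complex, in which GSK3 acts. In the epiblast, Wnt signals act together with Nodal and help to set up the primitive streak.

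The arrays resembled each other, with correlations of 0.990 to 0.995 between arrays and array medians of 5.22 to 5.27 in log2 units, the scale of every level and change below. The standard deviation over genes was 2.16 to 2.19 on the CHIR99021 arrays and 2.18 to 2.21 on those with both compounds. All 10 epiblast stem cell markers lay above a background level of 4.94, set by genes of smell and pheromone receptors. A further label names them embryonic stem cells instead. Of the markers of other cell types, 3 of 10 fibroblast genes, 3 of 8 endoderm genes, 2 of 6 measured trophoblast genes and 8 of 8 neural progenitor genes exceeded that level. On each array the mean level of the fibroblast list was 4.78 to 4.82 with CHIR99021 and 4.74 to 4.83 with both compounds, and that of the neural list was 5.82 to 5.99 and 5.95 to 5.99. The part of such cells in the results was not tested.

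XAV939 lowered 5 genes in CHIR99021-treated cells and raised none, as called by limma at an adjusted p under 0.05. These 5 were 0.0251% of the 19938 genes tested. They were Nodal, Fst, Gbx2 and Cited2, which CHIR99021 alone had raised, and Cysltr1, which it had not. Without adjustment, 1328 genes were higher and 858 lower at p under 0.05, which was 6.66% and 4.30% of all genes, and the median change over all genes was -0.0045. The called gene nearest the threshold was Cysltr1, with Cited2 at the same adjusted p of 0.0476. The nearest genes outside it were Atcay, Axin2, Eomes and Gm14164, each at 0.0788.

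Nodal, a TGF-beta family ligand that patterns the early embryo, showed the largest fall of all genes. Its level was 8.49, 8.57 and 8.67 on the CHIR99021 arrays and 8.02, 7.63 and 7.86 with both compounds, against 6.92, 6.78 and 6.75 in untreated cells. The groups did not overlap, and Nodal remained far above the untreated level when both compounds were present. It fell from 8.58 ± 0.09 (SD, n = 3) to 7.84 ± 0.19, a change of -0.74 (SE 0.09, 95% interval -0.93 to -0.55, adjusted p = 0.00954), which is 1.67-fold. With both compounds Nodal was still higher than in untreated cells by 1.02 (adjusted p = 5.62e-05), so 58.0% of the CHIR99021 rise of 1.76 was left. Nodal was also lower with XAV939 alone than in untreated cells, as given below. The share left thus also holds that difference, and is not the part of the CHIR99021 response kept in the presence of XAV939. The call ended when CHIR99021 replicate 2 (-0.74), CHIR99021 replicate 3 (-0.69) or replicate 2 of both compounds (-0.64) was left out, with the fall still present. It also ended in a fit to the compared groups alone, and 19 of 23 alternative analyses kept it.

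Fst encodes follistatin, a secreted protein that binds and blocks activins. Its level was 9.83, 9.79 and 9.75 with CHIR99021, 9.24, 8.91 and 9.24 with both compounds, and 7.88, 8.08 and 7.97 without treatment. Again the groups were separate, with the combined treatment between the other levels. Fst fell from 9.79 ± 0.04 (SD, n = 3) to 9.13 ± 0.19, a change of -0.66 (SE 0.10, 95% interval -0.87 to -0.46, adjusted p = 0.0368) or 1.58-fold. Its level with both compounds stayed 1.15 above untreated cells (adjusted p = 4.4e-05), which left 63.4% of a rise of 1.81. That level was also 1.68 above XAV939 alone (adjusted p = 1.5e-07), where Fst differed from untreated cells by -0.53, not called. The share left thus also holds the difference seen with XAV939 alone. Of 23 alternative analyses, 13 kept the call of the fall. Single arrays whose omission ended it were untreated replicates 1 and 2, any CHIR99021 replicate, and replicate 2 of both compounds, with values from -0.68 to -0.55.

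Gbx2, a homeobox factor linked to naive pluripotency and to the hindbrain boundary, kept less of its rise. The arrays read 7.82, 7.87 and 7.92 with CHIR99021, 7.14, 7.21 and 7.43 with both compounds, and 6.69, 6.86 and 6.65 without treatment. Every array with both compounds was below every CHIR99021 array and above every untreated array. The fall from 7.87 ± 0.05 (SD, n = 3) to 7.26 ± 0.15 was -0.61 (SE 0.09, 95% interval -0.81 to -0.41, adjusted p = 0.0465) or 1.52-fold, and 46.5% of a rise of 1.14 was left. Gbx2 was still called higher than in untreated cells, by 0.53 (adjusted p = 0.0174). It was called in 11 of 23 alternatives. It was lost without untreated replicate 1 or 2, any CHIR99021 replicate, or replicate 1 or 2 of both compounds (-0.64 to -0.55).

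Cited2 encodes a co-regulator that binds the coactivators CBP and p300. It read 9.80, 9.73 and 9.61 with CHIR99021, 9.36, 9.17 and 9.19 with both compounds, and 8.98, 9.03 and 9.05 without treatment. The combined arrays again lay between the other groups without overlap. Cited2 fell from 9.71 ± 0.10 (SD, n = 3) to 9.24 ± 0.10, a change of -0.47 (SE 0.08, 95% interval -0.63 to -0.31, adjusted p = 0.0476) or 1.39-fold. With both compounds Cited2 exceeded untreated cells by 0.22, which was not called (adjusted p = 0.126), and 32.3% of its rise of 0.70 was left.

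Cysltr1, the receptor for cysteinyl leukotrienes, was the one called gene that CHIR99021 had not changed. It read 7.64, 7.72 and 7.59 with CHIR99021 and 7.15, 7.25 and 7.18 with both compounds, while untreated arrays read 7.61, 7.63 and 7.44 and XAV939 arrays 7.59, 7.58 and 7.61. Its level was thus low on the combined arrays and alike in the other groups. Cysltr1 fell from 7.65 ± 0.06 (SD, n = 3) to 7.19 ± 0.05, a change of -0.45 (SE 0.07, 95% interval -0.61 to -0.30, adjusted p = 0.0476) or 1.37-fold, and against untreated cells it was -0.36 (adjusted p = 0.03). RefSeq places Gm5127 and Gm24622 over the same locus, so the signal may belong to a neighbour. The same limit holds for Fst, which Gm41074 overlaps, while no gene overlaps Nodal, Gbx2 or Cited2. Eomes, Dact1, Rgma and Tnfrsf19, among others not called, have overlapping genes too. Cited2 and Cysltr1 were each called in 8 of 23 alternatives. Cited2 was called among the omissions of a single array only without XAV939 replicate 2 or replicate 1 of both compounds, and Cysltr1 only without untreated replicate 3 or XAV939 replicate 2.

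**Figure D1:**
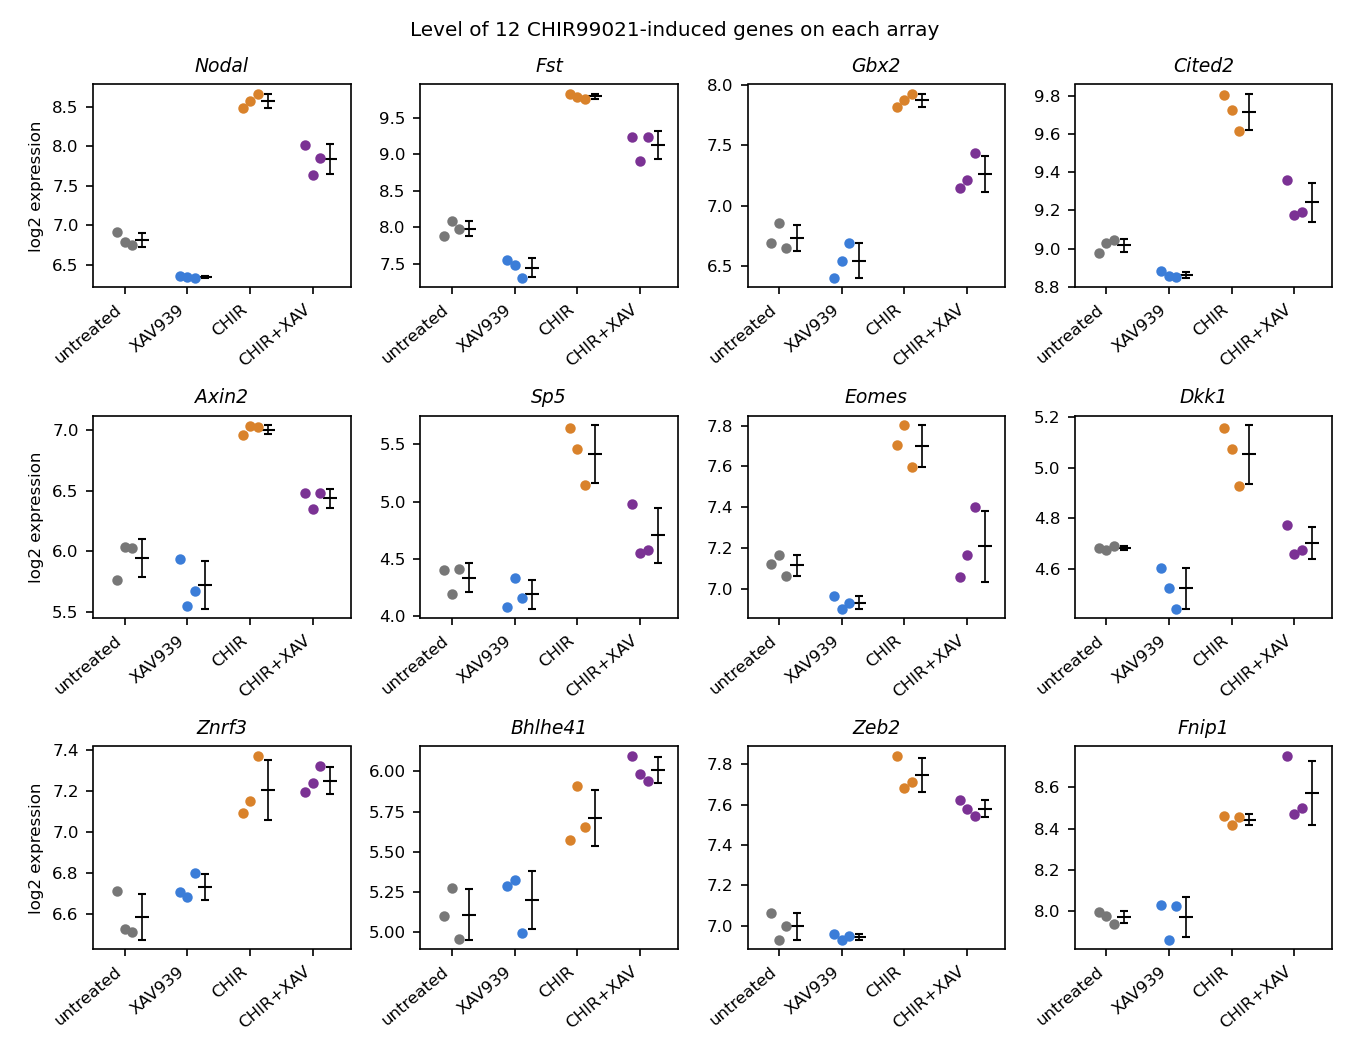
Log2 expression of 12 CHIR99021-induced genes on each array, grouped by treatment, with 1 point per array and the group mean and SD (n = 3) as a black bar beside it. Nodal, Fst, Gbx2 and Cited2 sit between the untreated and CHIR99021 levels when both compounds are present, whereas Znrf3, Bhlhe41 and Fnip1 do not come down.

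CHIR99021 alone raised 51 genes (0.256% of genes tested) by the same rule, and these induced genes were set against the XAV939 change one by one. Dkk1 (adjusted p = 0.0473) was the last gene inside that choice and Zkscan8 (0.0513) the first outside. The CHIR99021 arrays both chose these genes and enter the XAV939 change, so counts over them are descriptions without a test. Of the 51, 4 were called lower with XAV939 added and none higher. The change was below 0 in 44 and above 0 in 7. Its 95% interval lay below 0 in 34, held 0 in 16 and lay above 0 in 1. The median change was -0.26, against -0.0045 over all genes.

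The share of the rise left with both compounds had a median of 58.9% and ran from 5.39% for Dkk1 to 149% for Bhlhe41. The place of Dkk1 rests on untreated and combined levels under the background of 4.94. Any change that XAV939 makes without CHIR99021 also enters the share, and that change had a median of -0.04 over the 51 genes. The share was under 50% in 22 genes, from 50% to 75% in 13, from 75% to 100% in 9 and 100% or more in 7. Compared with untreated cells, 23 of the 51 were still called higher when both compounds were present, as were 0.818% of all genes. The choice of the 51 used the same untreated arrays, so that share is not what no effect would give and nothing is read from the count. On 32 of the 51 every array with both compounds was below every CHIR99021 array, as it was for 7.18% of all genes. When induced genes were chosen instead by both compounds against XAV939 alone, which does not use the CHIR99021 arrays, there were 20 (0.1% of genes tested). Of these, 15 were among the 51, and the same 4 were called lower. The change was below 0 in 13 of them, with a median of -0.19. This choice uses the arrays with both compounds, which are the other side of the XAV939 change, so these counts too are descriptions.

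**Figure D2:**
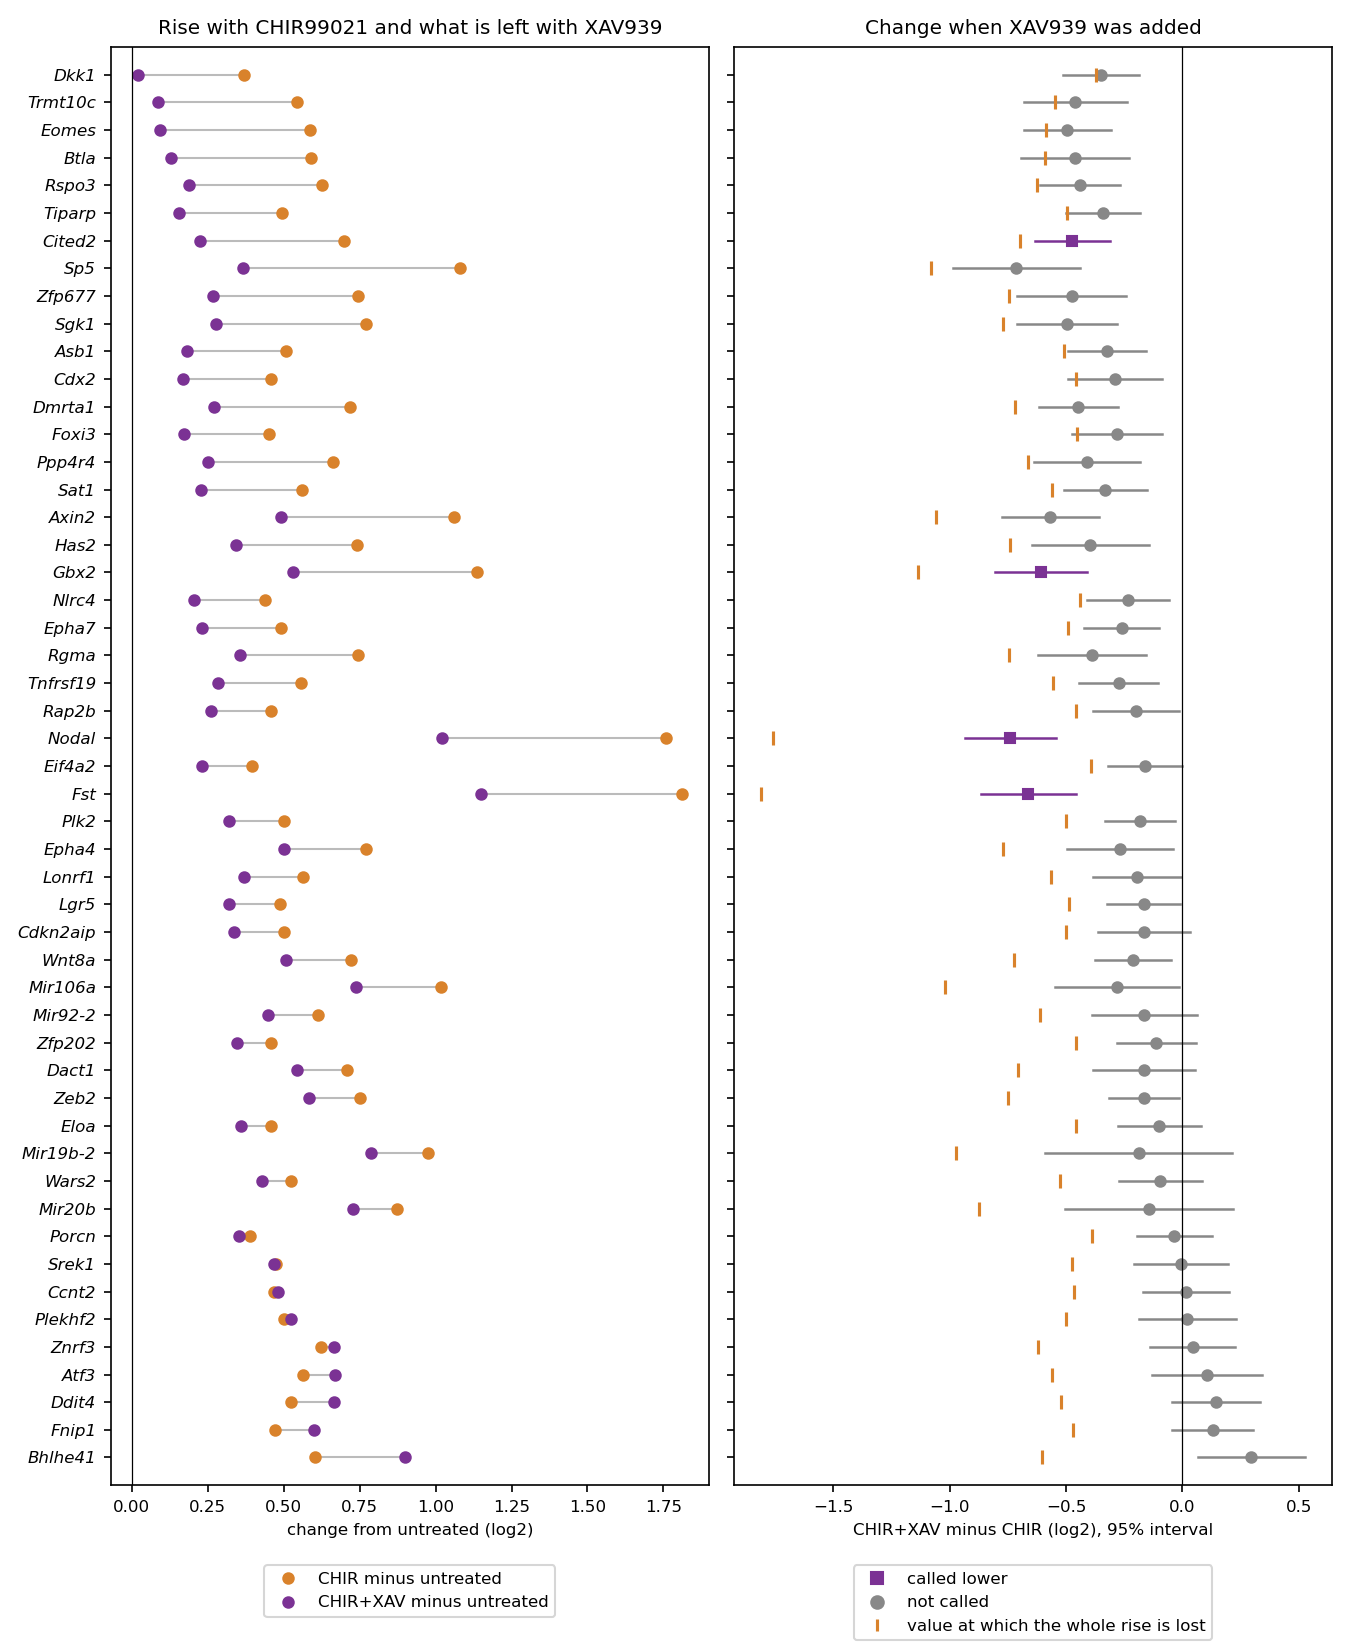
The 51 CHIR99021-induced genes in order of the share of their rise left, from Dkk1 at 5.39% to Bhlhe41 at 149%. The left panel shows the log2 change from untreated cells with CHIR99021 and with both compounds, and the right panel the change on adding XAV939 with its 95% interval, squares for the 4 called genes and an orange tick at the value where the whole rise would be lost.

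Among feedback inhibitors of the Wnt pathway the responses were uneven. Axin2, a scaffold of the destruction complex and a standard readout of beta-catenin activity, read 6.96, 7.03 and 7.02 with CHIR99021, 6.48, 6.35 and 6.48 with both compounds, and 5.77, 6.04 and 6.03 without treatment. The groups did not overlap, yet the change of -0.57 (95% interval -0.78 to -0.36) was not called at an adjusted p of 0.0788. Of its rise of 1.06, 46.4% was left, and Axin2 was called in 5 of the 23 alternatives. With XAV939 alone Axin2 differed from untreated cells by -0.22, not called, which the share also holds. Dkk1, a secreted antagonist of the co-receptors Lrp5 and Lrp6, had values near the untreated level, with 5.16, 5.07 and 4.93 on the CHIR99021 arrays, 4.77, 4.66 and 4.67 with both compounds, and 4.68, 4.67 and 4.69 in untreated cells. Its change was -0.35 (95% interval -0.51 to -0.19, adjusted p = 0.19), and its untreated and combined levels were under the background of 4.94, so the size of its fall and its share left are uncertain.

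Znrf3, a membrane ubiquitin ligase that removes Wnt receptors, behaved differently. It read 7.09, 7.15 and 7.37 with CHIR99021 and 7.19, 7.24 and 7.32 with both compounds, so the groups overlapped. The change was 0.04 (95% interval -0.14 to 0.23), and its sign turned under quantile and cyclic loess normalization (-0.0024 and -0.0072). An interval that reaches only to -0.14 excludes a loss of 50% of its CHIR99021 rise of 0.62. With both compounds Znrf3 was called higher than in untreated cells, by 0.67 (adjusted p = 0.00274). Dact1, an intracellular modulator of Wnt signalling, changed by -0.16 (95% interval -0.38 to 0.05), an interval that holds both no change and a loss of 50%, from an untreated level under background.

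Among Wnt ligands, receptors and their helpers, none of 40 listed genes was called. Rspo3, an R-spondin that amplifies Wnt signals through Lgr receptors, read 5.66, 5.85 and 5.83 with CHIR99021 and 5.20, 5.45 and 5.37 with both compounds, without overlap. Its change was -0.44 (95% interval -0.61 to -0.27, adjusted p = 0.088), and 29.8% of the rise was left. Lgr5, an R-spondin receptor, kept 65.9% (-0.17, 95% interval -0.32 to -0.01). Wnt8a, a ligand of the early streak, kept 70.5% of its rise, with a change of -0.21 (95% interval -0.38 to -0.05, adjusted p = 0.338), and stayed called above untreated cells by 0.51 (adjusted p = 0.00954). Porcn, the enzyme that adds a lipid to Wnt proteins, kept 90.9% (-0.04, 95% interval -0.20 to 0.13).

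Of 24 measured genes of the primitive streak and mesendoderm none was called. Eomes, a T-box factor of the streak, read 7.70, 7.80 and 7.60 with CHIR99021, 7.06, 7.16 and 7.40 with both compounds, and 7.12, 7.16 and 7.06 without treatment. Its combined arrays were below all CHIR99021 arrays and overlapped the untreated ones. The change was -0.49 (95% interval -0.68 to -0.31, adjusted p = 0.0788) and 15.8% of the rise was left. This share also holds the difference of -0.18 between XAV939 alone and untreated cells, which was not called. Against XAV939 alone, Eomes with both compounds was higher by 0.28, not called, beside a CHIR99021 rise of 0.59. Sp5, a zinc finger factor and direct beta-catenin target, read 5.65, 5.46 and 5.14 with CHIR99021, 4.98, 4.55 and 4.58 with both compounds, and 4.40, 4.19 and 4.41 without treatment. Its level was under the background of 4.94 on 2 of 3 arrays with both compounds and on every untreated array, so the size of its measured change, -0.71 (95% interval -0.99 to -0.44, adjusted p = 0.0844), is uncertain. Over the 24 streak genes, 5 were lower and none higher at an unadjusted p under 0.05, against 4.30% and 6.66% of all genes, and their median was -0.06. Of the 24, 4 were called higher with CHIR99021 alone, and the CHIR99021 arrays enter both changes, so these counts are descriptions.

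Promoter sequences were examined because Sp5, Dkk1 and Nodal were all induced by CHIR99021 and kept different shares of their rise. TCF/LEF factors bind a core that was searched here as CTTTGAA or CTTTGAT on both strands, in the 250 bases before and 50 bases after each start in RefSeq of build GRCm38.p6. The window of Sp5 (chr2:70474673-70474972, plus strand) and that of Dkk1 (chr19:30549447-30549746, minus strand) each hold 1 match, in capitals, which begins 104 and 117 bases before the start. The window of Nodal (chr10:61417722-61418021, plus strand) holds none, which says only that these letters are not in this window.
Sp5: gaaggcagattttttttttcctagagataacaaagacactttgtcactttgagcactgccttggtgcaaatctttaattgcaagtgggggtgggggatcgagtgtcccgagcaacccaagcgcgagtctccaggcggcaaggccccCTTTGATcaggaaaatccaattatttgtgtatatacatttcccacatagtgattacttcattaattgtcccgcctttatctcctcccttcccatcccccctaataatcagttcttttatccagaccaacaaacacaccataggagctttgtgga
Dkk1: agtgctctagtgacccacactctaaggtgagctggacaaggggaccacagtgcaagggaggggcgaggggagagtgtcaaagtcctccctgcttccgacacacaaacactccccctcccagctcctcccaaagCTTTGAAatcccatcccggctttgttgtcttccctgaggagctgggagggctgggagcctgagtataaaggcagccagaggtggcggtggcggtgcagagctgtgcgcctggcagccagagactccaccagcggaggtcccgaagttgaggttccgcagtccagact
Nodal: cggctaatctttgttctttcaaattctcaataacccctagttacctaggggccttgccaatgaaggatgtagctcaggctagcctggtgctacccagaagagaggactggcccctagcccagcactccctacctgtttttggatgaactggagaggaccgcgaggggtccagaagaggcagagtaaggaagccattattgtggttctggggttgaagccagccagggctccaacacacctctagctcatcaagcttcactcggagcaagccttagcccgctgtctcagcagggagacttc
A match stood in 8.65% of all 32851 promoters of this length. Of the 51 induced genes 37 had a promoter in the table, and 5 of these had a match. They were Dkk1, Sp5, Sgk1 and Nlrc4, which kept under 50% of their rise (4 of 19 such genes), and Tnfrsf19, which kept 50.9% (1 of 18 genes at or above 50%). The shares of Dkk1 and Sp5 are uncertain, since levels of both lay under background, and Tnfrsf19 lies close to the split. Sgk1 has 6 promoters in the table, and a gene with more promoters has more chances of a match. The 37 genes have 48 promoters, so the counts of genes and the 8.65% of promoters are unlike measures. A match is a description of the sequence and was not tested as a binding site.

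Several other induced genes had small shares of their rise left and were not called. Trmt10c, part of the mitochondrial RNase P, kept 15.7% with a change of -0.46 (95% interval -0.68 to -0.24). Btla, an inhibitory receptor of lymphocytes, kept 21.6% (-0.46, 95% interval -0.69 to -0.23). With XAV939 alone Btla differed from untreated cells by -0.27, not called, and its share also holds that difference. Against XAV939 alone, Btla with both compounds was higher by 0.40, not called, beside a CHIR99021 rise of 0.59. Tiparp, a target of the aryl hydrocarbon receptor, kept 31.2% (-0.34, 95% interval -0.50 to -0.18). Sgk1, a serum-responsive kinase, and Zfp677, a zinc finger gene, each kept 36.0%, with changes of -0.49 and -0.48. Adjusted p-values of these 5 genes lay between 0.146 and 0.202, so they stand in the order of sizes but outside the calls.

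The genes that XAV939 left high formed a mixed group. Bhlhe41, a repressor of the circadian clock, read 5.57, 5.91 and 5.65 with CHIR99021 and 6.10, 5.98 and 5.94 with both compounds, so every combined array was above every CHIR99021 array, as for 8.92% of all genes. Its change of 0.30 (95% interval 0.07 to 0.53) was not called (adjusted p = 0.347), while its level with both compounds was called 0.90 above untreated cells (adjusted p = 0.00147). Fnip1, a partner of folliculin in nutrient sensing, kept 128% of its rise, with a change of 0.13 (95% interval -0.04 to 0.30). It was called 0.60 above untreated cells with both compounds (adjusted p = 0.00445).

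Ddit4, a stress-induced inhibitor of mTORC1, and Atf3, a stress-induced transcription factor, kept 128% and 119%. Both were also higher with XAV939 alone, by 0.47 and 0.58, though neither was called there. Set against XAV939 alone, the level with both compounds was higher by 0.19 and 0.09, neither called. The CHIR99021 rises from untreated cells were 0.52 and 0.56. The shares of Ddit4 and Atf3 therefore also hold the rise seen with XAV939 alone, and do not show a CHIR99021 response kept in its presence. Their changes on adding XAV939 to CHIR99021 were 0.14 (95% interval -0.05 to 0.33) and 0.11 (95% interval -0.13 to 0.34), and that of Atf3 turned sign to -0.02 without replicate 1 of both compounds. Plekhf2, Ccnt2 and Srek1 kept 104%, 103% and 98.7%. Their changes of 0.02, 0.02 and -0.01 flipped in sign with normalization or an omitted array. For 7 of the 16 induced genes whose interval held 0, the interval excluded a loss of 50% of the rise, and for 9 it did not. The 7 were Srek1, Ccnt2, Plekhf2, Znrf3, Atf3, Ddit4 and Fnip1.

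Zeb2, Epha4 and Tnfrsf19 lay between these extremes. Zeb2, a repressor of E-cadherin, read 7.84, 7.68 and 7.71 with CHIR99021 and 7.62, 7.58 and 7.54 with both compounds. Its small fall of -0.17 (95% interval -0.32 to -0.01, adjusted p = 0.416) left 78.0% of its rise, and it stayed called above untreated cells by 0.58 (adjusted p = 0.00147). Epha4, an ephrin receptor, overlapped between the groups at 6.69, 6.93 and 6.83 against 6.49, 6.34 and 6.82. Its change was -0.27 (95% interval -0.50 to -0.04), with 65.1% of the rise left. Tnfrsf19, a TNF receptor family member and Wnt target, kept 50.9% (-0.27, 95% interval -0.44 to -0.10).

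The miR-106a and miR-302 clusters of microRNA genes are both known from pluripotent cells. MicroRNAs silence messages through the seed, bases 2 to 8, shown in capitals in the RefSeq sequences of build GRCm38.p6. These mature forms are shown because members of both clusters share seeds, while the arrays measured the microRNA genes and not the mature forms.
miR-106a-5p: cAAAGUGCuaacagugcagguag
miR-20b-5p: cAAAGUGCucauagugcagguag
miR-19b-3p: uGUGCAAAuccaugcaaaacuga
miR-92a-3p: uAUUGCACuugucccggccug
miR-363-3p: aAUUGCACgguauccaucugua
miR-302b-3p: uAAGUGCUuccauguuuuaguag
miR-302d-3p: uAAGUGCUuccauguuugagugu
miR-367-3p: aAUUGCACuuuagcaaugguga
The first 5 belong to the miR-106a cluster on chromosome X and the last 3 to the miR-302 cluster on chromosome 3. miR-106a-5p and miR-20b-5p share the seed AAAGUGC, and miR-302b-3p and miR-302d-3p share AAGUGCU. The seed AUUGCAC is common to miR-92a-3p and miR-363-3p of the first cluster and miR-367-3p of the second.

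In the miR-106a cluster, 4 of the 5 measured genes were induced by CHIR99021, and 1 of the 5, Mir106a, was called higher than in untreated cells with both compounds (by 0.74, adjusted p = 0.0165). Mir106a read 6.30, 6.19 and 6.40 with CHIR99021, 5.81, 6.18 and 6.06 with both compounds, and 4.99, 5.50 and 5.34 without treatment. Its combined arrays were below the CHIR99021 arrays and well above the untreated ones. The change was -0.28 (95% interval -0.55 to -0.02, adjusted p = 0.429) and 72.3% of the rise was left. Mir92-2, Mir19b-2 and Mir20b kept 73.2%, 80.7% and 83.5%, with intervals of -0.39 to 0.06, -0.59 to 0.22 and -0.51 to 0.22. These intervals hold both no change and a loss of 50%, that of Mir106a also holds a loss of 50%, and Mir20b turned to 0.02 without replicate 3 of both compounds. Mir363 changed by 0.01 (95% interval -0.35 to 0.36), which turned to -0.04 under quantile normalization.

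In the miR-302 cluster all 5 genes were lower with XAV939 added, from -0.51 for Mir302b to -0.34 for Mir367, and none was called. Mir302b read 10.58, 10.18 and 10.86 with CHIR99021, 9.98, 9.95 and 10.17 with both compounds, 9.93, 10.13 and 9.93 without treatment, and 9.69, 9.14 and 9.44 with XAV939 alone. The arrays with both compounds overlapped the untreated ones, and CHIR99021 replicate 2 read nearest to it. Its 95% interval was -0.82 to -0.19, with an adjusted p of 0.268. With XAV939 alone the changes of the 5 were -0.58 to -0.69, again with none called. The genes of a cluster lie on one transcript, so the 5 values are not independent. Larp7, the gene that hosts this cluster, changed by -0.03.

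**Figure D3:**
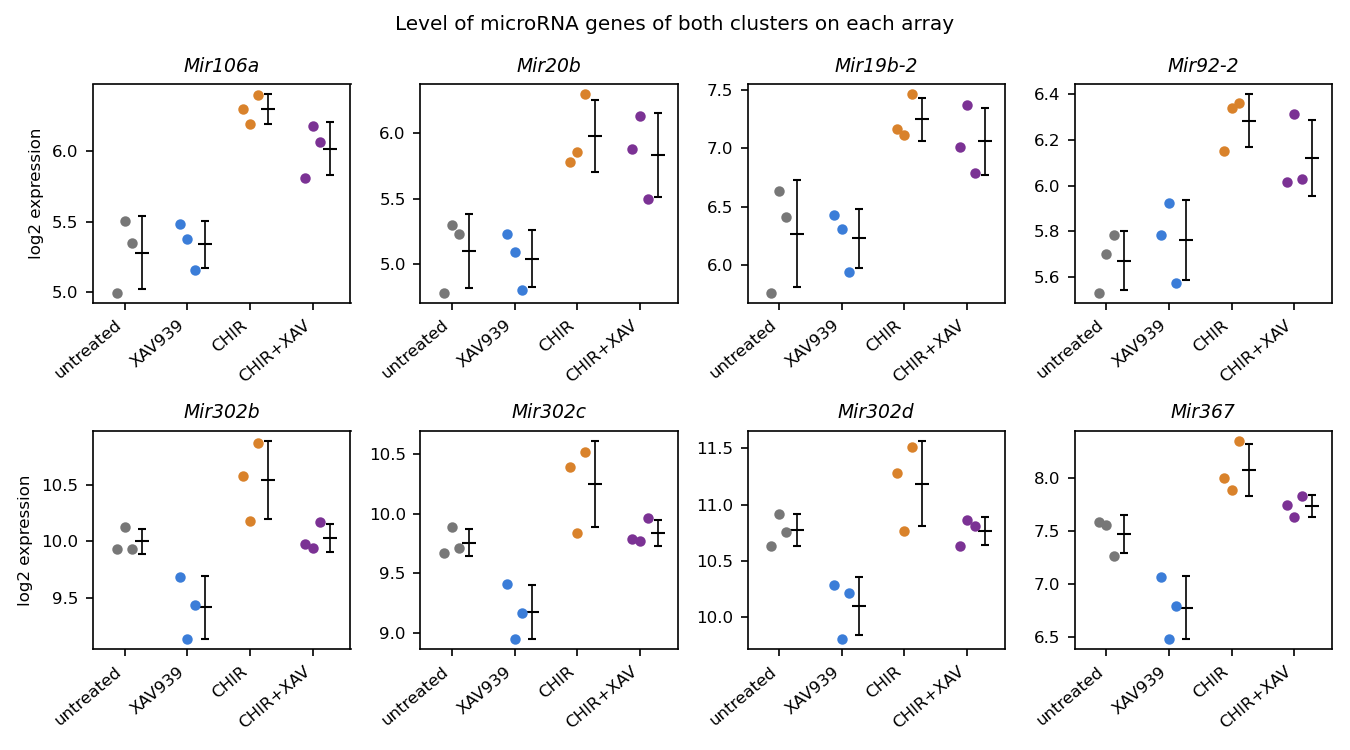
Log2 expression of 4 genes of the miR-106a cluster (upper row) and 4 of the miR-302 cluster (lower row) on each array, with the group mean and SD (n = 3) beside the points. In the upper row both groups with CHIR99021 lie above both groups without it, whereas in the lower row the combined arrays lie at the untreated level or slightly above it and the XAV939 arrays lowest.

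CHIR99021 alone lowered 33 genes (0.166% of genes tested), and none of these was called higher with XAV939 added. The change was above 0 in 28 of the 33, with a median of 0.14, and the interval lay above 0 in 11. Again the CHIR99021 arrays chose the genes. Gadd45b, a growth arrest and DNA damage gene, read 6.27, 6.16 and 6.23 with CHIR99021, 6.64, 6.69 and 6.49 with both compounds, and 6.96, 6.97 and 6.83 without treatment. It stood between the groups without overlap, at a change of 0.39 (95% interval 0.22 to 0.55, adjusted p = 0.136) with 44.9% of its fall left. Dido1, a chromatin reader, overlapped between the groups, with 7.59, 7.50 and 7.72 against 7.65, 7.64 and 7.68. Its change was 0.05 (95% interval -0.11 to 0.22), so 93.4% of its fall was left. Ppp1r10, a regulatory subunit of protein phosphatase 1, changed by 0.32 (95% interval 0.12 to 0.51, adjusted p = 0.268), and Mab21l2, a gene of eye development, by -0.16 (95% interval -0.44 to 0.12).

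The XAV939 change was also set beside the same change without CHIR99021, which uses the other 6 arrays. XAV939 alone called no gene with limma (2241 genes at an unadjusted p under 0.05, smallest adjusted p 0.155). Nodal and Fst differed from untreated cells with XAV939 alone by -0.47 (95% interval -0.66 to -0.28) and -0.53 (95% interval -0.74 to -0.33), and each adjusted p was 0.155. The difference between the XAV939 changes with and without CHIR99021 was -0.27 for Nodal (95% interval -0.54 to 0.01) and -0.13 for Fst (95% interval -0.42 to 0.16), so these data do not separate the falls in either setting. For Gbx2, Cited2 and Cysltr1 the difference was -0.42, -0.32 and -0.49, with intervals below 0 but adjusted p-values of 0.965, 0.965 and 0.627.

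The test of that difference called no gene (985 genes, or 4.94%, at an unadjusted p under 0.05, smallest adjusted p 0.107). That smallest value belonged to Gm14164, a predicted gene model. It read 7.63, 8.0 and 7.51 with CHIR99021, 7.16, 7.10 and 6.89 with both compounds, 7.49, 7.37 and 7.27 without treatment, and 7.95, 7.72 and 7.73 with XAV939 alone. It was thus lower with XAV939 in the presence of CHIR99021 and higher in its absence, a difference of -1.09 (95% interval -1.43 to -0.74). It was called with trend and robust settings, with array weights and without CHIR99021 replicate 3. Over the 51 induced genes XAV939 alone gave a median change of -0.04, with 32 below 0, and the interval of the difference lay below 0 in 22 and above 0 in none. The untreated and CHIR99021 arrays that chose these genes enter those values too.

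**Figure D4:**
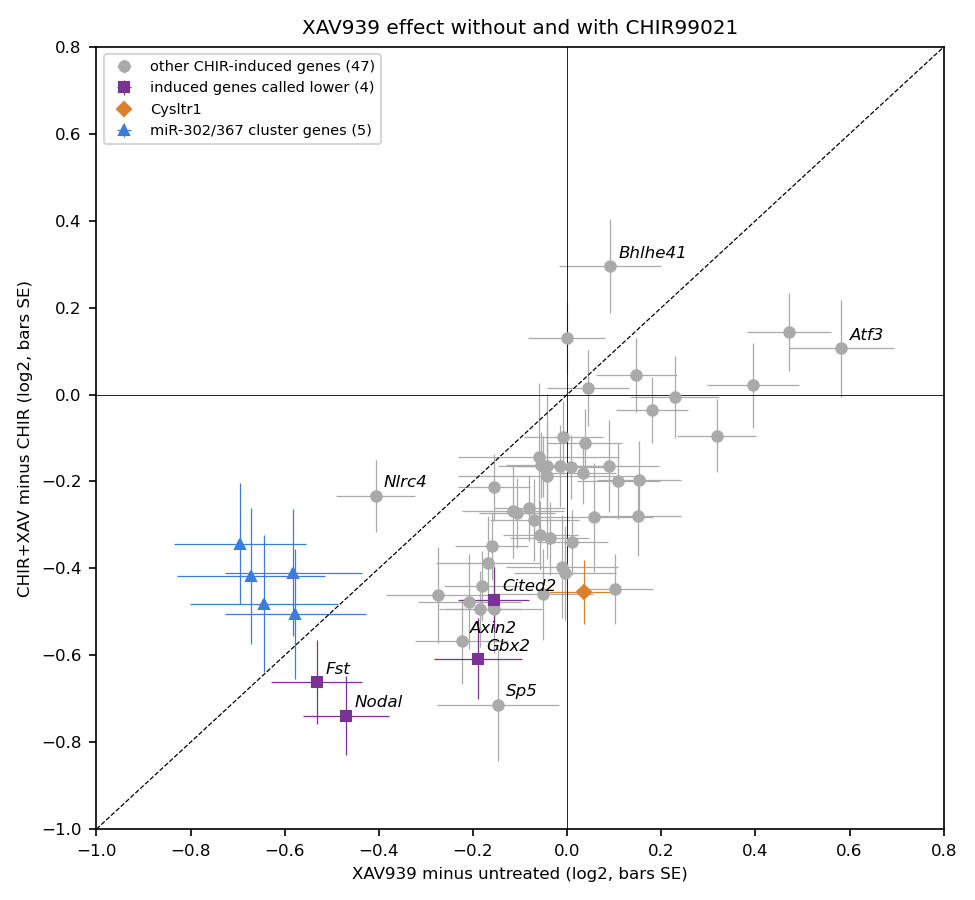
Log2 change with XAV939 in cells without CHIR99021 (horizontal axis) against the change in cells with CHIR99021 (vertical axis), with SE bars, for the 51 induced genes, Cysltr1 and 5 genes of the miR-302 cluster. The dashed line marks equal changes, which the miR-302 cluster genes lie near or above, while Nodal, Gbx2, Cited2, Axin2 and Sp5 lie below it.

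Of 28 measured genes in a list of Wnt/beta-catenin targets, 3 were called lower (Nodal, Fst and Gbx2) and none higher. At an unadjusted p under 0.05, 10 were lower and 1 higher, against 4.30% and 6.66% of all genes, and the median was -0.09 against -0.0045 for all genes. Of the 28, 10 were called higher with CHIR99021 alone. The CHIR99021 arrays enter both changes, so these counts of Wnt targets are descriptions. Lef1, Nkd1, Cdx1 and Myc of this field changed by 0.02, -0.07, 0.08 and -0.03, and Lef1 and Myc flipped in sign with another normalization or an omitted array. Nodal and Fst were also the 2 called of 24 genes of Nodal, activin and TGF-beta signalling, whose median was 0.10. Furin, a protease that matures Nodal, and Smad7, an inhibitory Smad, changed by 0.33 and 0.26, neither called.

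Genes of the machinery on which both compounds act were not called. In all, none of 18 genes of the destruction complex and tankyrases was called, with a median of 0.07. At an unadjusted p under 0.05, 4 were higher and 1 lower, against 6.66% and 4.30% of all genes. The largest change of this list was that of Axin2, at -0.57, its 1 gene induced by CHIR99021. Ctnnb1, the gene of beta-catenin, changed by 0.0026, with a sign that depends on normalization. Axin1 changed by 0.25 (95% interval 0.06 to 0.44), Tnks by 0.19 (95% interval 0.03 to 0.34) and Tnks2 by 0.07. In the TCF/LEF list none of 15 genes was called, and Tle5, a Groucho family member, had the smallest p at a change of 0.17.

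No core pluripotency gene of 14 measured was called. Pou5f1, Sox2 and Nanog changed by 0.04 (95% interval -0.11 to 0.19), 0.10 (95% interval -0.06 to 0.27) and -0.13 (95% interval -0.34 to 0.08). Of 16 naive genes Gbx2 alone was called, while Klf5 and Klf2 changed by -0.23 and -0.16. Of 15 primed epiblast genes none was called, and Dnmt3a, a DNA methyltransferase, changed by 0.22.

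**Figure D5:**
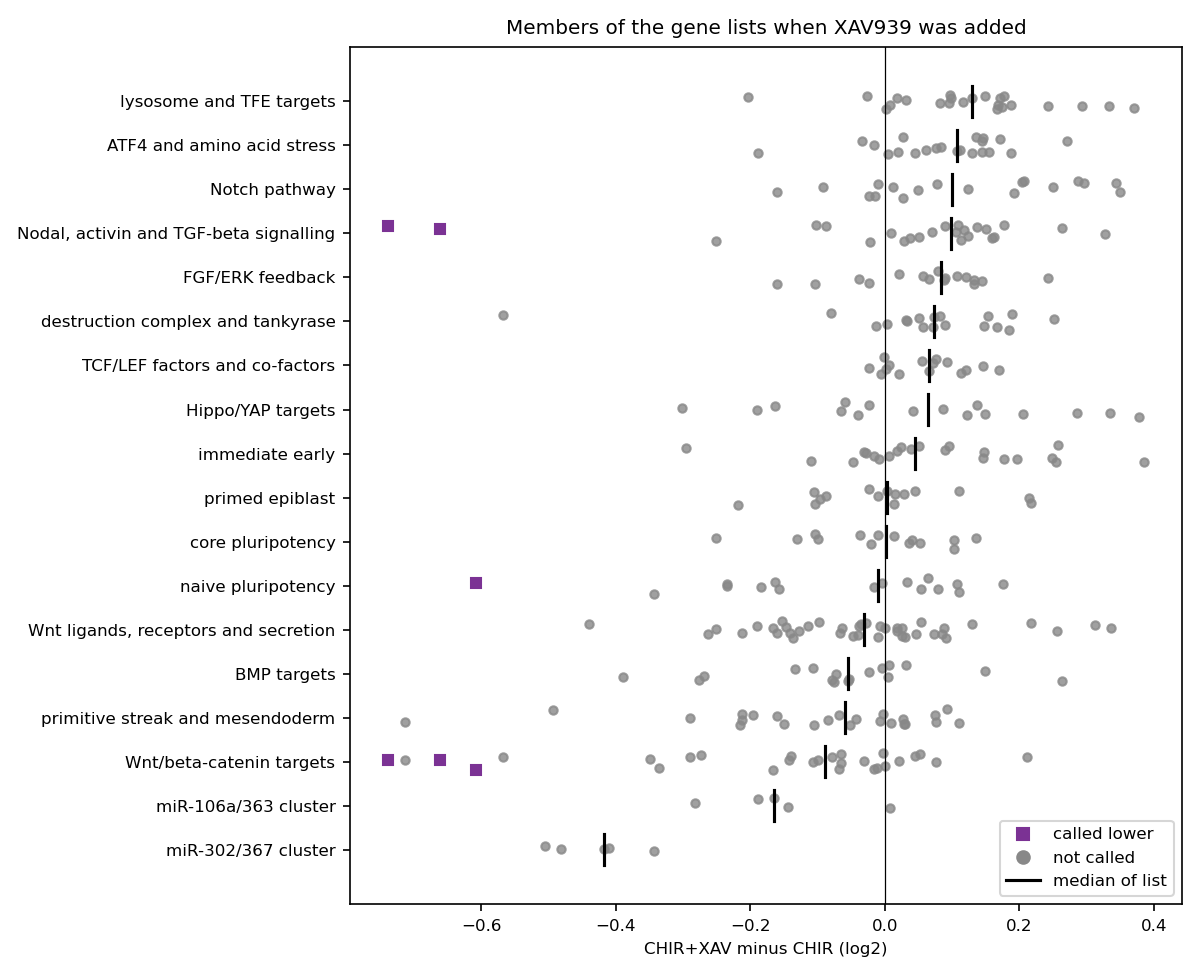
Log2 change on adding XAV939 to CHIR99021 for each measured member of 18 gene lists, ordered by the list's median (black bar), with squares for genes called lower. The called squares are Nodal, Fst and Gbx2, which recur in several lists, and the miR-302 cluster genes are the list lying lowest, with a median of -0.42.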

How the data were processed

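The authors deposited 1 value per probe and array (1-colour Affymetrix), taken here as log2 because values span 2.52 to 14.3. The submitters' processing notes name Partek; background correction and normalization are not given in the sources used here. No further normalization was applied. Of 35399 probes, 21789 had 1 gene symbol, and the probe with the highest mean over 12 arrays stood for each of 19938 genes.

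A model with 1 mean per group was fitted over the 12 arrays (limma 3.58.1, R 4.3.3, lmFit and eBayes, two-sided, 8 residual and 8.03 prior degrees of freedom), with Benjamini-Hochberg adjustment over all genes. The share of a rise left is the change of both compounds from untreated cells over that of CHIR99021. A change that XAV939 makes without CHIR99021 also enters this share. In 5 sets of simulated data with 200 changed genes, this test found 73.6% of changes of 0.5 and 98.4% of changes of 1, with 4.34% false calls. With 200 changed genes the adjusted threshold is easier to pass than in data with 5 calls. These shares therefore do not carry over to genes not called here, such as Sp5 at -0.71 and Axin2 at -0.57. The background level is the 95th percentile of 1194 receptor genes.

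Genes and lists were chosen with earlier results of these data known. Named were called genes, the induced genes with the largest rise and with the largest and smallest share left, the genes CHIR99021 lowered most, a fixed set of pathway genes, and up to 4 members of each list by smallest p. Atcay, Zkscan8, Larp7, Lgr5, Dact1, Porcn, Ccnt2, Srek1, Nlrc4, Mir363 and Mir367 were added after their values were seen. Alternatives were other normalizations, filters, probe rules and variance settings, a replicate block and the omission of arrays. Figures used matplotlib 3.10.9.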

Additional observations from a re-analysis of the deposited data

How the results depend on the processing

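The 5 calls were 8 after quantile normalization and 8 after cyclic loess (all lower, the 5 included), 2 after median centring (Nodal and Fst), 10 with genes under the median level left out, 3 with a fold of at least 1.5, 1 with array weights, 0 in a fit to the compared groups alone, and 0 to 7 when 1 array was left out. They were 0 without CHIR99021 replicate 2, CHIR99021 replicate 3 or replicate 2 of both compounds. They were 1 without untreated replicate 1, untreated replicate 2 or CHIR99021 replicate 1, and 3 without XAV939 replicate 3. Of the induced genes called lower, 2 were left after median centring, 7 with the filter at the median, 1 with array weights, 0 in the fit to the compared groups alone and 0 to 5 when 1 array was left out. The joint omission of untreated replicate 3 with XAV939 replicate 2, chosen as was cyclic loess after seeing the data, left 1 gene and 1 induced gene. The difference of the XAV939 effects gave 1 gene (Gm14164) with trend and robust settings and 1 with array weights, and 0 to 1 when 1 array was left out. The cause of these moves was not tested.

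The deviations of each array from its group means were correlated between arrays of different groups. Same-numbered arrays gave correlations of -0.25 to 0.20, with 6 of 18 pairs over 0.1. Differently numbered arrays gave -0.30 to 0.33, so the numbers were not taken as pairs. With the replicate number as a block, 1 gene (Nodal) was called and 1 induced gene, and the difference of the effects called 0.

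Some signs turned, most for genes close to 0. Under quantile normalization the values were -0.0024 for Znrf3, -0.0094 for Plekhf2, -0.0037 for Lef1 and -0.0421 for Mir363. Under cyclic loess they were -0.0072, -0.022, -0.0168 and -0.0427 for the same genes and -0.001 for Ctnnb1. Array weights gave -0.0018 for Plekhf2, -0.0236 for Mir363 and 0.0091 for Srek1, and median centring 0.0106 for Srek1. With 1 array left out the lowest and highest values were -0.0106 and 0.1278 for Znrf3, -0.0406 and 0.0972 for Plekhf2, -0.0174 and 0.0695 for Lef1, -0.0442 and 0.0522 for Ctnnb1, -0.1814 and 0.1764 for Mir363, -0.1018 and 0.1055 for Srek1, -0.2921 and 0.0247 for Mir20b, -0.0914 and 0.0437 for Myc, -0.0231 and 0.1956 for Atf3 and -0.0193 and 0.0629 for Ccnt2. Levels near the background of 4.94, as for Sp5, Dkk1 and Cdx2, and 3 arrays per group limit the precision.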

Other observations

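In the other gene lists no gene was called. At an unadjusted p under 0.05, 6.66% of all genes were higher and 4.30% lower. Of 23 measured lysosome and TFE target genes, 2 were below 0, 6 were higher and none lower at that p, and the median was 0.13. Clcn7, a chloride transporter of the lysosome, changed by 0.37, Fnip2 by 0.33, Dpp7, a lysosomal peptidase, by 0.29 and Ctsd, the protease cathepsin D, by 0.24. Of 18 Notch pathway genes 5 were below 0, 6 were higher and none lower at that p, with a median of 0.10, and Hes1, a Notch target, Jag2, a ligand, Notch2, a receptor, and Dll1, a ligand, changed by 0.35, 0.34, 0.30 and 0.29. With XAV939 alone Dll1 changed by 0.56. The medians remained above 0 under quantile, median centring and cyclic loess, at 0.10 to 0.15 for the lysosome list and 0.09 to 0.12 for the Notch list. Genes of middle brightness were also higher as a whole, with a median of 0.08 in decile 7 of all genes by mean level and -0.05 in decile 3, and the part of this pattern in these list values was not tested.

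Of 16 Hippo/YAP targets none was called, and they went both ways, with Nuak2 at 0.38, Amotl1 at 0.33 and Ccn2, a secreted matricellular protein, at -0.30. Of 17 BMP targets 12 were below 0, and 3 were lower and 1 higher at an unadjusted p under 0.05, against 4.30% and 6.66% of all genes. Their changes reached up to 0.26. Rgma, a BMP co-receptor and one of the CHIR99021-induced genes, was at -0.39. Id2 and Id4, inhibitors of basic helix-loop-helix factors, were at -0.28 and -0.27. Of 22 immediate early genes 4 were higher and none lower at an unadjusted p under 0.05, against 6.66% and 4.30% of all genes, among them Fos at 0.26 and Ier2 at 0.25. Fos lay under the background of 4.94 on every array and overlapped between the groups, so its change is uncertain. Of 16 FGF/ERK feedback genes Dusp6, a phosphatase of ERK, had the smallest p at a change of 0.24. Of 21 genes of ATF4 and amino acid stress 3 were below 0, with a median of 0.11. At an unadjusted p under 0.05, 1 was higher, Cebpb at 0.27, and 1 lower, Fgf21 at -0.19, against 6.66% and 4.30% of all genes.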
